A study of Mus musculus with 20 samples.

Results

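Schwann cells are the glia of peripheral nerves. Myelinating Schwann cells wrap large axons in compact myelin under the transcription factors Sox10 and Egr2, while nonmyelinating Schwann cells ensheath small axons, many of them nociceptors, without myelin. In dorsal root ganglia, which house the somata of sensory neurons, they lie along the axons that enter and leave the ganglion, whereas satellite glia cover the cell bodies. The genes described here are 32 Schwann cell and myelin genes of the 55416 genes counted. They were chosen by symbol for their known roles, with no measured value in the rule, but with earlier results of these data known. All 32 symbols matched an Ensembl ID in the files. Of these, 24 belong to myelination and 8 mark the lineage, the immature cell or the nonmyelinating cell.

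Ganglia of lumbar levels L3 to L5 came from adult C57Bl6 mice of both sexes, 1 month after tamoxifen. Prdm12, the targeted gene, encodes a transcription factor of the nociceptor lineage. The icKO formalin and icKO noninjected groups are labelled AdvCreERT2; P12 Fl/Fl TAM, and the control formalin and control noninjected groups are labelled P12 Fl/Fl TAM, so controls carry the floxed alleles and received tamoxifen as well. The series text names the recombinase as Rosa26CreERT2 instead. Rosa26 is a locus active in most cell types, so whether Schwann cells carried the recombinase cannot be told from these records. Each of 10 animals gave 1 formalin library and 1 noninjected library. The labels give neither the injected side nor the time after formalin.

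For 4 of the 10 animals the sample title gives one genotype and the name of the deposited count table the other. The animals titled control 1 and control 4 were deposited as icKO, and those titled icKO 2 and icKO 3 were deposited as control. By title, control 1 and 2 and icKO 1, 2 and 3 were female, and control 3, 4 and 5 and icKO 4 and 5 were male. Each genotype comparison is therefore given over the 6 animals whose records agree (icKO 1, 4 and 5; control 2, 3 and 5) and over all animals by deposited name, and the values of the mixed-record animals are printed on their own. Prdm12 (ENSMUSG00000079466) in noninjected libraries was at 23.5, 22.1 and 23.3 CPM in icKO 1, 4 and 5, against 98.8, 76.9 and 96.6 CPM in control 2, 3 and 5. It was at 23.1 and 38.1 CPM in the animals titled control 1 and 4, against 74.7 and 81.3 CPM in those titled icKO 2 and 3, so its level followed the deposited name in all 10 noninjected libraries. With formalin it was at 15.7 and 14.4 CPM in icKO 4 and 5 and 28.1 and 26.1 CPM in the animals titled control 1 and 4, against 104, 92.6 and 100 CPM in control 2, 3 and 5 and 72.9 and 114 CPM in those titled icKO 2 and 3. The mean log2 difference was -1.74 by deposited name (exact two-sided permutation p = 0.00794, 5 against 5 animals) and -0.63 by title (exact two-sided permutation p = 0.262). Over the agreeing animals it was -1.97, with p = 0.1 in the exact two-sided permutation test, the smallest that 3 against 3 animals allow.

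Levels are CPM, counts scaled to a library total of 1e+06 after TMM scaling, which equalises libraries on the bulk of their genes. The 19 libraries used held 11763893 to 22392635 counts. The icKO 1 formalin library held 2829 counts and was left out, which leaves 2 agreeing icKO animals with formalin. The members took 0.567% to 0.846% of a library's counts, and all 32 passed the filter on low counts in each fit. Pmp22 and Mbp, genes of compact myelin, had medians of 1600 and 1330 CPM, so myelin transcripts were present in the tissue as labelled. The oligodendrocyte markers Opalin, Olig2 and Nkx2-2 were at 0 in 10, 13 and 16 of the 19 libraries. Their highest levels were 0.0874, 0.0656 and 0.0836 CPM. Mog and Klk6 were at 0 in 3 and 6 libraries. Ermn, Hapln2, Mobp and Myrf of the same list were above 0 in every library, with medians of 0.452, 0.415, 2.34 and 4.08 CPM. Sox10, Erbb3, S100b and Cdh19 are also known from satellite glia and L1cam from sensory neurons, so their counts are not those of Schwann cells alone. In bulk tissue, fewer cells of a type and less RNA per cell cannot be told apart.

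Among the members, level per kilobase of exon covered a wide range. Pmp22, a small glycoprotein of compact myelin, had the highest median over the 19 libraries, at 680 CPM per kb. S100b, a calcium-binding protein of glia, followed at 401 CPM per kb, and Mbp, the myelin basic protein that compacts the cytoplasmic faces of the sheath, at 157 CPM per kb. The nonmyelinating-cell sodium channel gene Scn7a had 112 CPM per kb and the adhesion gene L1cam 78.9 CPM per kb. At the low end, the transcription factor genes Egr2, Sox2 and Pou3f1 had 4.24, 3.25 and 0.894 CPM per kb, and Mobp, a myelin protein best known from oligodendrocytes, had 0.342 CPM per kb. Exon lengths were taken from a GRCm38 annotation, while the counts were made on GRCm39.

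The spread between libraries also differed by gene. Scn7a and Tspan2, a tetraspanin of myelinating glia, varied least, each with an SD of 0.1 on the log2 CPM scale over 19 libraries. Mobp varied most, with an SD of 1 and 11 to 229 counts per library. Ugt8a had an SD of 0.39, Ncmap 0.36, Itgb4 0.35 and Lgi4 0.35, while Pmp22 and Cnp each had 0.17. Members with few counts carry more counting error: Gjb1 had 57 to 163 counts per library, Pllp 43 to 173 and Pou3f1 26 to 101.

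Without formalin, a subset of myelin and glial genes was lower in icKO ganglia and none of the 32 was called higher. Over the 6 agreeing animals, 5 members were lower (edgeR's quasi-likelihood test over 17669 genes, threshold 0.05 on the p adjusted by Benjamini-Hochberg), against 0.877% of all genes tested called lower and 3.83% called higher. They were Ncmap, Ugt8a, Dusp15, Mal and Lgi4. By deposited name 7 members were lower, Cdh19, Ugt8a, Ncmap, Lgi4, Mal, Drp2 and Cmtm5, against 3.53% of 17671 genes called lower and 5.86% called higher. The median log2 fold of the 32 members was -0.16 over the agreeing animals and -0.17 by deposited name, against -0.005 and -0.003 over all genes tested. For the 24 myelinating genes the medians were -0.2 and -0.19, and for the other 8 they were -0.14 and -0.11.

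**Figure D1:**
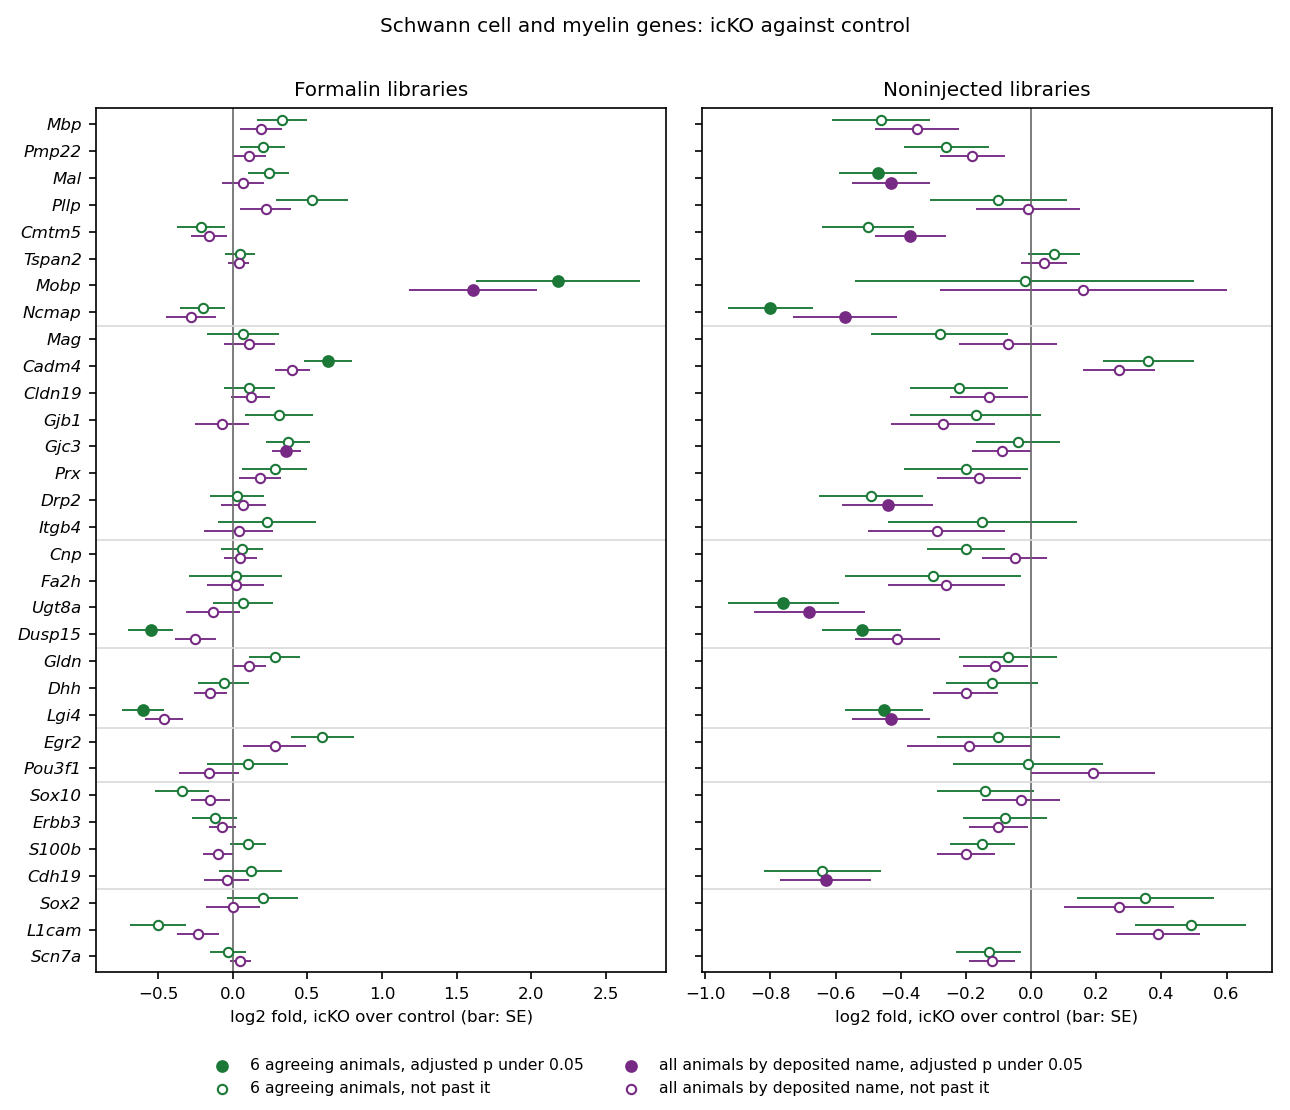
The log2 fold of icKO over control for each of the 32 genes, in order of role, with its standard error as a bar, in formalin libraries (left) and noninjected libraries (right), with a different x range in each panel. Green points are the 6 agreeing animals, purple points all animals by deposited name, and filled points passed an adjusted p of 0.05. In noninjected libraries 28 of 32 folds lie below 0 over the agreeing animals, and in formalin libraries 23 of 32 lie above 0.

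In the agreeing grouping the lowest fold of all members was that of Ncmap, grouped here with the compact myelin and sheath proteins. Ncmap (ENSMUSG00000043924), a small membrane protein of noncompact myelin made by Schwann cells, was at 58.2, 50.3 and 54.3 CPM in icKO 1, 4 and 5, against 101, 92.8 and 91.6 CPM in control 2, 3 and 5. Mixed-record animals had Ncmap levels of 72.1 and 73.6 CPM where deposited as icKO, against 111 and 76.1 CPM where deposited as control. All noninjected libraries deposited as icKO lay below all those deposited as control, although the highest of the first group and the lowest of the second were 73.6 and 76.1 CPM. Its log2 fold was -0.80 ± 0.13 (SE, adjusted p = 0.0116, edgeR) over the agreeing animals and -0.57 ± 0.16 (adjusted p = 0.0341) by deposited name.

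Mal (ENSMUSG00000027375), a lipid-raft proteolipid that sorts myelin membrane, was at 134, 119 and 164 CPM in icKO 1, 4 and 5, against 181, 215 and 188 CPM in control 2, 3 and 5. Mixed-record animals had Mal levels of 163 and 136 CPM where deposited as icKO, against 216 and 164 CPM where deposited as control. The agreeing groups did not overlap, and by deposited name icKO 5 and the animal titled icKO 3 both had 164 CPM to 3 digits. The log2 fold was -0.47 ± 0.12 (adjusted p = 0.0466, edgeR) and -0.43 ± 0.12 (adjusted p = 0.0384) in the agreeing and deposited groupings. Cmtm5 (ENSMUSG00000040759), a MARVEL-domain protein of myelinating glia, was at 46.4, 38.2 and 41 CPM in icKO 1, 4 and 5, against 59.8, 68 and 50.9 CPM in control 2, 3 and 5. Mixed-record animals had Cmtm5 levels of 41.5 and 48.9 CPM where deposited as icKO, against 54.2 and 47.7 CPM where deposited as control. Its groups overlapped by deposited name, through the animals titled control 4 and icKO 3. The Cmtm5 fold was -0.37 ± 0.11 (adjusted p = 0.0483, edgeR) by deposited name and -0.50 ± 0.14 (adjusted p = 0.0584) over the agreeing animals, short of the threshold. The other sheath proteins did not pass it. Mbp had folds of -0.46 ± 0.15 (adjusted p = 0.0934, edgeR) and -0.35 ± 0.13 (adjusted p = 0.0884), and Pmp22 -0.26 ± 0.13 and -0.18 ± 0.10. Tspan2, at 0.07 ± 0.08 and 0.04 ± 0.07, turned to -0.03 and -0.01 when libraries were scaled by their totals alone.

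Of the 4 myelin enzymes, 2 were lower over the agreeing animals. Ugt8a (ENSMUSG00000032854), the galactosyltransferase that makes the myelin lipid galactosylceramide, was at 50.6, 39.1 and 61.6 CPM in icKO 1, 4 and 5, against 91.9, 90.8 and 76.1 CPM in control 2, 3 and 5. Mixed-record animals had Ugt8a levels of 68.5 and 44.2 CPM where deposited as icKO, against 99.4 and 74.6 CPM where deposited as control. Every noninjected library deposited as icKO lay below every one deposited as control. The log2 fold was -0.76 ± 0.17 (adjusted p = 0.0339, edgeR) over the agreeing animals and -0.68 ± 0.17 (adjusted p = 0.021) by deposited name. Dusp15 (ENSMUSG00000042662), a dual-specificity phosphatase of myelinating glia, was at 117, 98.9 and 113 CPM in icKO 1, 4 and 5, against 154, 161 and 160 CPM in control 2, 3 and 5. Mixed-record animals had Dusp15 levels of 125 and 140 CPM where deposited as icKO, against 188 and 145 CPM where deposited as control. Here too the deposited groups did not overlap, yet the call was made over the agreeing animals (-0.52 ± 0.12, adjusted p = 0.0355, edgeR) and not by deposited name (-0.41 ± 0.13, adjusted p = 0.0599). The other enzymes did not pass in either grouping: Cnp, a phosphodiesterase of noncompact myelin, had folds of -0.20 ± 0.12 and -0.05 ± 0.10, and Fa2h, which hydroxylates myelin lipids, -0.30 ± 0.27 and -0.26 ± 0.18.

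Adhesion, junction and periaxonal proteins gave a call by deposited name alone. Drp2 (ENSMUSG00000000223), a dystrophin-related protein that holds the outer Schwann cell membrane to the basal lamina with periaxin, was at 296, 236 and 336 CPM in icKO 1, 4 and 5, against 422, 392 and 417 CPM in control 2, 3 and 5. Mixed-record animals had Drp2 levels of 394 and 264 CPM where deposited as icKO, against 505 and 386 CPM where deposited as control. Only the 394 CPM of the animal titled control 1 reached into the levels of the animals deposited as control. The Drp2 fold was -0.44 ± 0.14 (adjusted p = 0.0483, edgeR) by deposited name and -0.49 ± 0.16 (adjusted p = 0.0911) over the agreeing animals. Prx, the gene of its partner periaxin, was at 244, 157 and 255 CPM in icKO 1, 4 and 5, against 262, 256 and 240 CPM in control 2, 3 and 5, and the animals of mixed record had 250 and 201 CPM as icKO, against 280 and 226 CPM as control. Among the agreeing icKO animals icKO 4 alone lay below the controls, and the Prx folds, -0.20 ± 0.19 and -0.16 ± 0.13, did not pass. Mag, an adhesion protein of the membrane facing the axon, was at 30.5, 18.2 and 23.5 CPM in icKO 1, 4 and 5, against 29.8, 26.1 and 31.4 CPM in control 2, 3 and 5, and the animals of mixed record had 32.6 and 28.4 CPM as icKO, against 32.7 and 25.6 CPM as control. The groups overlapped, and the Mag folds were -0.28 ± 0.21 and -0.07 ± 0.15.

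Cldn19, a claudin of tight junctions in the Schwann cell sheath, was at 60.6, 44.5 and 63.8 CPM in icKO 1, 4 and 5, against 69.2, 69 and 60.7 CPM in control 2, 3 and 5. In the animals of mixed record it was at 66.6 and 61.7 CPM as icKO, against 78.3 and 58.5 CPM as control, so the groups overlapped and the folds of -0.22 ± 0.15 and -0.13 ± 0.12 did not pass. Cadm4 (ENSMUSG00000054793), the glial adhesion molecule that binds axonal Cadm3, had positive folds of 0.36 ± 0.14 (adjusted p = 0.14, edgeR) and 0.27 ± 0.11 (adjusted p = 0.131). The connexin genes Gjb1 and Gjc3 and the laminin receptor subunit gene Itgb4 had folds between -0.29 and -0.04 in the groupings, none past the threshold.

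Among the secreted signals, Lgi4 (ENSMUSG00000036560), which Schwann cells release to sort and myelinate axons through the receptor Adam22, was lower in both groupings. Lgi4 is counted here with the 8 lineage, immature and nonmyelinating genes and not with the 24 myelinating genes. It was at 38.3, 28.7 and 34.5 CPM in icKO 1, 4 and 5, against 54.8, 38.1 and 47.4 CPM in control 2, 3 and 5. Mixed-record animals had Lgi4 levels of 32 and 33.1 CPM where deposited as icKO, against 55.6 and 38.4 CPM where deposited as control. The groups met at icKO 1 and control 3, which had 38.3 and 38.1 CPM. The log2 fold was -0.45 ± 0.12 (adjusted p = 0.0482, edgeR) and -0.43 ± 0.12 (adjusted p = 0.037) in the agreeing and deposited groupings. In the GRCm38 annotation 44.9% of the Lgi4 exon bases overlap Fxyd3 on the other strand, and the library kit does not mark strand, so reads of the shared stretch cannot be assigned by strand. Fxyd3, a gene of the satellite glia list with a median of 14.1 CPM, had folds of -0.46 ± 0.14 (adjusted p = 0.0807, edgeR) and -0.29 ± 0.14 (adjusted p = 0.194). Gldn, which gathers sodium channels at nodes, and Dhh, the hedgehog signal to the perineurium, had folds between -0.20 and -0.07. Dhh and Pllp share 25.2% and 54.2% of their exon bases with an antisense gene.

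Neither transcription factor gene of myelination was called. Egr2, which switches on the myelin program, was at 16.2, 11 and 16.8 CPM in icKO 1, 4 and 5, against 15.9, 18.9 and 12.8 CPM in control 2, 3 and 5, and animals of mixed record had 12 and 14.5 CPM as icKO, against 20.8 and 12.7 CPM as control. Its folds were -0.10 ± 0.19 and -0.19 ± 0.19, and the groups overlapped throughout. Pou3f1, the factor of the promyelinating stage, had folds of -0.01 ± 0.23 and 0.19 ± 0.19. In the agreeing grouping these errors do not exclude differences of the size seen for Lgi4 and Mal.

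Among the lineage genes, Cdh19 (ENSMUSG00000047216), a cadherin of Schwann cell precursors and glia, was at 88.9, 104 and 124 CPM in icKO 1, 4 and 5, against 168, 173 and 153 CPM in control 2, 3 and 5. Mixed-record animals had Cdh19 levels of 119 and 97.3 CPM where deposited as icKO, against 172 and 154 CPM where deposited as control. The deposited groups did not overlap, with 124 CPM the highest of the icKO libraries and 153 CPM the lowest of the controls. Its fold was -0.63 ± 0.14 (adjusted p = 0.0111, edgeR) by deposited name and -0.64 ± 0.18 (adjusted p = 0.0715) over the agreeing animals. Sox10, the master factor of the lineage, was at 69.1, 55.7 and 74.1 CPM in icKO 1, 4 and 5, against 76, 63.3 and 81.7 CPM in control 2, 3 and 5, and animals of mixed record had 70.9 and 68.6 CPM as icKO, against 72.1 and 61.2 CPM as control. Its groups overlapped and its folds were -0.14 ± 0.15 and -0.03 ± 0.12. Erbb3, the neuregulin receptor of the lineage, and S100b had folds between -0.20 and -0.08 and no call.

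Of the 3 genes of immature and nonmyelinating cells, L1cam and Sox2 had positive folds and Scn7a negative ones, and none passed the test. L1cam, which nonmyelinating Schwann cells and axons carry, was at 831, 622 and 644 CPM in icKO 1, 4 and 5, against 536, 415 and 549 CPM in control 2, 3 and 5. Mixed-record animals had L1cam levels of 582 and 580 CPM where deposited as icKO, against 519 and 545 CPM where deposited as control. Each library deposited as icKO exceeded each deposited as control, but the folds of 0.49 ± 0.17 (adjusted p = 0.107, edgeR) and 0.39 ± 0.13 (adjusted p = 0.0747) missed the threshold. Sox2, a factor of the immature cell that holds back myelination, was at 6.69, 7.1 and 9.19 CPM in icKO 1, 4 and 5, against 4.18, 7.06 and 7.3 CPM in control 2, 3 and 5, and animals of mixed record had 5.87 and 6.62 CPM as icKO, against 5.31 and 4.63 CPM as control. Scn7a was at 734, 798 and 752 CPM in icKO 1, 4 and 5, against 963, 783 and 790 CPM in control 2, 3 and 5, and animals of mixed record had 855 and 733 CPM as icKO, against 869 and 890 CPM as control. Both overlapped between the groups, with Sox2 folds of 0.35 ± 0.21 and 0.27 ± 0.17 and Scn7a folds of -0.13 ± 0.10 and -0.12 ± 0.07.

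By deposited name, 4 members lay wholly below the controls (Ncmap, Ugt8a, Dusp15 and Cdh19) and 1 wholly above (L1cam), against 4.03% and 4.24% of all genes. Over the agreeing animals 9 members lay wholly below and 1 above, against 14.2% and 14.4% of all genes. The agreeing calls depended on single animals. The count of 5 became 0 without control 2 or without icKO 1, 1 without control 3 or without control 5 (Ncmap), 8 without icKO 4 and 11 without icKO 5. By deposited name it was 1 without the animal titled control 2, icKO 1 or control 3 (Cdh19), 3 without control 5, icKO 2 or icKO 4, and 6 without any of the others. When all 10 animals were grouped by title, no member was called and 1 had an unadjusted p under 0.05 (edgeR).

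**Figure D2:**
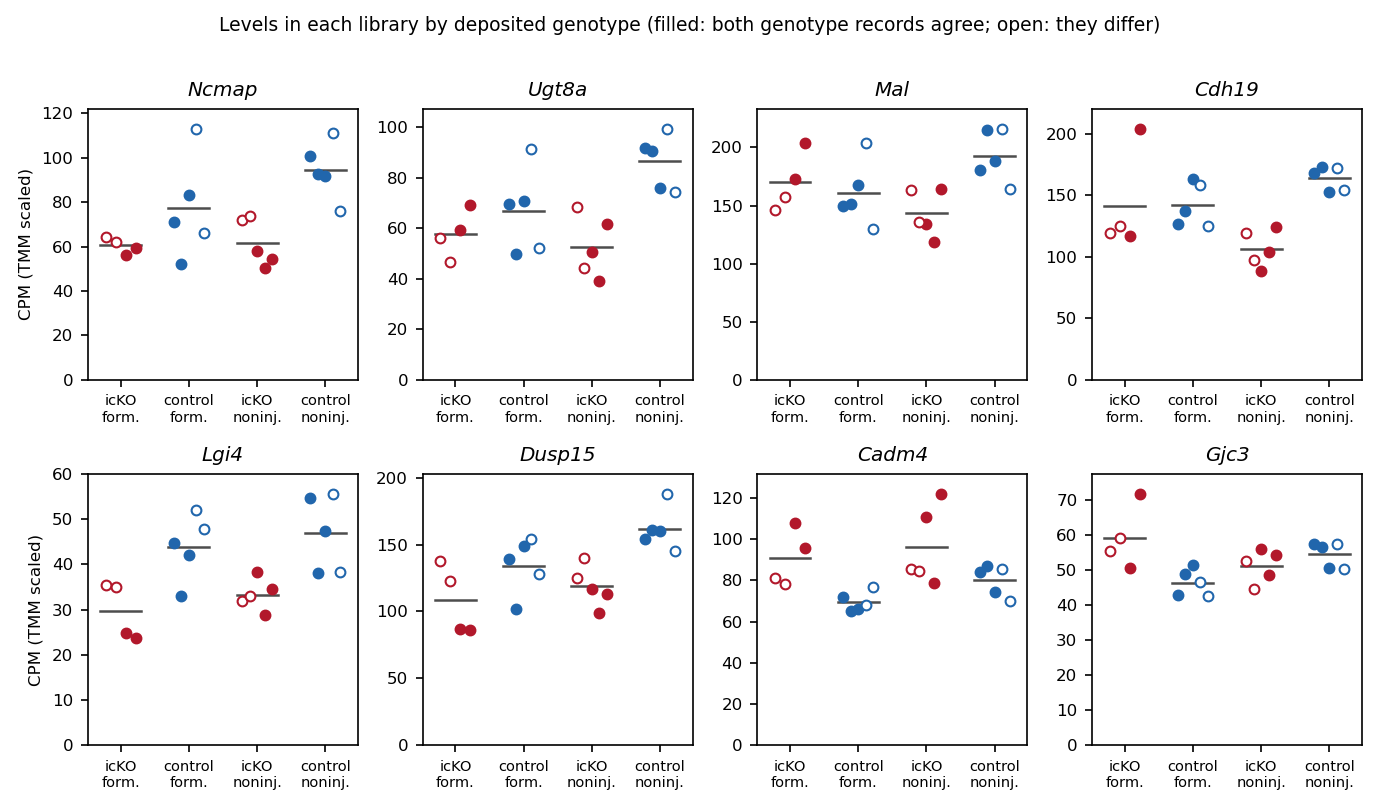
Level of 8 genes in every library used (CPM after TMM scaling, axis from 0), grouped by deposited genotype and agent. Each point is 1 library, filled where both genotype records agree and open where they differ, and the line is the group mean. For Ncmap, Ugt8a, Cdh19 and Dusp15 every noninjected icKO point lies below every noninjected control point.

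The promoters of members that were lower together in noninjected icKO ganglia are shown because those members passed the test in the same direction. RefSeq promoters (GRCm38.p6) were at hand for 22 of the 32 members and for 4 of the 8 members called lower in either grouping. The 250 bases before the gene start are given 5′ to 3′ on the strand of the gene, with CpG dinucleotides in capitals, for Ugt8a (chr3:125938653-125938902, minus strand), Ncmap (chr4:135398228-135398477, minus strand), Mal (chr2:127656696-127656945, minus strand) and Cmtm5 (chr14:54936220-54936469, plus strand).
Ugt8a: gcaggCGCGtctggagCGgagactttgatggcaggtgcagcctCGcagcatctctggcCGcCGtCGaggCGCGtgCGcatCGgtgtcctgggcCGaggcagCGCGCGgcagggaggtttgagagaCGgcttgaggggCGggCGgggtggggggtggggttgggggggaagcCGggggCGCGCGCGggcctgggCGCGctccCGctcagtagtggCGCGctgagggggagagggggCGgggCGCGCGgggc
Ncmap: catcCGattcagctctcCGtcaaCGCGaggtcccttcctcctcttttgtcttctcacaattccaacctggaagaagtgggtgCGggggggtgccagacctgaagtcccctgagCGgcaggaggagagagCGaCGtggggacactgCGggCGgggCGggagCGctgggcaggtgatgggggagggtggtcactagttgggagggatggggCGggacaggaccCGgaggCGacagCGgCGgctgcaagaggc
Mal: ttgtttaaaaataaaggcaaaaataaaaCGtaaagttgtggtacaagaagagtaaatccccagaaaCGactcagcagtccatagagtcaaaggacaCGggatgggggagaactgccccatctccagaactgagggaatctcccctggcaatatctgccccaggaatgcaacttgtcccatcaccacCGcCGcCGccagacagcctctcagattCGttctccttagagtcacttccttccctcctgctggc
Cmtm5: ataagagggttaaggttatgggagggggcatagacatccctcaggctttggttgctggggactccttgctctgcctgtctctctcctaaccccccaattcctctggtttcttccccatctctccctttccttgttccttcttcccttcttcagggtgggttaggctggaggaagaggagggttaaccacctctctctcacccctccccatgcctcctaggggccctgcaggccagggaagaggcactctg
Their base composition differed. Ugt8a had 76.8% G and C and 32 CpG dinucleotides, Ncmap 66% and 17, Mal 50% and 7, and Cmtm5 56.8% and 0. The median of 32851 RefSeq promoters was 52.4% and 6 CpG, with an upper quartile of 16 CpG. The SOX-type core words ACAAAG and ACAATG and the EGR-type core GTGGGCG were searched on both strands in the same 250 bases. None of the 4 promoters held either kind, and of the other 18 members with a promoter 6 held a SOX-type word (Sox2, Cadm4, Mag, Mobp, Cnp and Gjb1) and 5 the EGR-type word (Scn7a, Tspan2, Cldn19, Cadm4 and Egr2). Of all promoters 25.2% held a SOX-type word and 7.02% the EGR-type word.

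Related lists placed the members beside other genes of the nerve. Of 18 other peripheral myelin genes, 2 were lower in noninjected icKO libraries over the agreeing animals and 6 by deposited name. In these groupings 5 and 6 of the 18 had positive folds, none of them called. Bcas1, a protein of myelinating glia, had a log2 fold of -0.71 ± 0.15 (adjusted p = 0.0257, edgeR) over the agreeing animals and -0.58 ± 0.13 (adjusted p = 0.0118) by deposited name. Ndrg1 (-0.45 ± 0.10), Aspa (-0.53 ± 0.12), Arhgef10 (-0.30 ± 0.08) and Cd9 (-0.23 ± 0.07) were also lower by deposited name. Of 11 repair Schwann cell genes tested, 2 were higher over the agreeing animals, Jun (0.89 ± 0.16, adjusted p = 0.018, edgeR), the injury factor of Schwann cells that neurons share, and Shh (0.89 ± 0.18), while 8 of the 11 had negative folds, none of them called, and the list's median was -0.26. By deposited name Ngfr, the neurotrophin receptor of immature and nonmyelinating Schwann cells and of sensory neurons, was also higher (0.55 ± 0.15, adjusted p = 0.027, edgeR). Among 10 nonmyelinating Schwann cell genes Gfra3, also a receptor of nociceptors, was lower over the agreeing animals (-0.67 ± 0.13, adjusted p = 0.0228, edgeR). By deposited name Gfra3 was not called (-0.20 ± 0.30, adjusted p = 0.719, edgeR).

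Of 21 genes of axon contact, node and receptor tested, Cntnap1, the axonal partner at paranodes (0.69 ± 0.14), and Cadm3 (0.78 ± 0.17) were higher over the agreeing animals, with adjusted p = 0.0241 and 0.0288 (edgeR). Of 25 genes of myelin lipid and cholesterol synthesis, 2 were higher, among them the fatty acid synthase gene Fasn (0.87 ± 0.18), and Msmo1 (-0.48 ± 0.11) was lower over the agreeing animals. None of 17 lineage transcription factors tested was called without formalin. Over the agreeing animals the median log2 folds of these lists ran from -0.30 for nonmyelinating Schwann cell genes to 0.19 for axon contact genes, beside -0.005 for all genes.

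Sums of neuronal markers differed beside these results. The summed level of 12 sensory neuron markers ran from 18700 to 21500 CPM in the noninjected agreeing icKO libraries, against 14100 to 17500 CPM in the controls, and that of 10 large-fibre neuron markers from 3860 to 4660 CPM, against 2840 to 3370 CPM. Of these markers 3 in each list were called higher, among them Ntrk3 (1.01 ± 0.14, adjusted p = 0.00477, edgeR) and Pou4f1 (0.54 ± 0.11, adjusted p = 0.0246). By deposited name the neuron sums overlapped, with 15200 to 21500 CPM in icKO libraries, against 13400 to 17500 CPM in controls. The sum of 14 satellite glia markers was 4690 to 5430 CPM in the agreeing icKO libraries, against 4620 to 6040 CPM in controls, with none called. The 12 perineurial and endoneurial fibroblast markers summed to 1470 to 2870 CPM, against 1530 to 2900 CPM, and the 9 macrophage markers to 155 to 240 CPM, against 195 to 319 CPM. The 8 erythroid markers summed to 246 to 815 CPM, against 162 to 320 CPM, with none called. The part of neuron or blood content in the lower myelin genes was not tested.

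With formalin, over the 2 agreeing icKO and 3 agreeing control animals, 2 members were higher and 2 lower, against 6.33% of 17669 genes called higher and 2.81% called lower, so the share called higher was close to that of all genes. By deposited name, 4 icKO against 5 control libraries, Gjc3 and Mobp were higher and none was lower, against 3.05% of 17671 genes called higher and 0.905% called lower. The median log2 fold of the members was 0.10 over the agreeing animals and 0.04 by deposited name, against -0.001 and 0.003 over all genes. Myelinating genes had medians of 0.15 and 0.07 and the other 8 members medians of -0.08 and -0.09. Both agreeing icKO animals with formalin were male, whereas of the agreeing controls control 2 was female. Sex was a covariate in the fit, but the levels of single animals and the overlap counts were not adjusted for it.

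The lower members were Lgi4 and Dusp15, which were also lower over the agreeing animals without formalin. Lgi4 was at 24.8 and 23.7 CPM in icKO 4 and 5, against 44.7, 33 and 42 CPM in control 2, 3 and 5. Mixed-record animals with formalin had 35.4 and 35 CPM where deposited as icKO, against 52 and 47.8 CPM where deposited as control. Control 3, at 33 CPM, was the one control library below those of the animals titled control 1 and 4. The fold was -0.60 ± 0.14 (adjusted p = 0.0189, edgeR) over the agreeing animals and -0.46 ± 0.13 (adjusted p = 0.0575) by deposited name, while Fxyd3 had folds of 0.10 ± 0.17 and -0.06 ± 0.15. Dusp15 was at 87.2 and 86 CPM in icKO 4 and 5, against 139, 102 and 149 CPM in control 2, 3 and 5. The animals of mixed record had Dusp15 at 138 and 123 CPM as icKO, against 154 and 128 CPM as control. Its agreeing groups did not overlap and its deposited groups did, with folds of -0.55 ± 0.15 (adjusted p = 0.0359, edgeR) and -0.25 ± 0.14 (adjusted p = 0.371).

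Cadm4 was higher over the agreeing animals. It was at 108 and 95.8 CPM in icKO 4 and 5, against 72, 64.9 and 66.1 CPM in control 2, 3 and 5. Mixed-record animals with formalin had Cadm4 at 81.3 and 78.4 CPM as icKO, against 68 and 76.7 CPM as control. All formalin libraries deposited as icKO lay above all those deposited as control. Cadm4 was the sole member of the 32 with no overlap there, a share close to the 3.08% of all genes. The fold was 0.64 ± 0.16 (adjusted p = 0.0251, edgeR) over the agreeing animals and 0.40 ± 0.12 (adjusted p = 0.0767) by deposited name. Over the agreeing animals 10 members lay wholly above the controls and 4 wholly below, against 22.1% and 21.9% of all genes.

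Gjc3 (ENSMUSG00000056966), the connexin 29 gene of the inner Schwann cell membrane, was at 50.6 and 71.6 CPM in icKO 4 and 5, against 42.9, 48.7 and 51.3 CPM in control 2, 3 and 5. Mixed-record animals with formalin had Gjc3 at 55.3 and 59 CPM as icKO, against 46.4 and 42.4 CPM as control. Only icKO 4 fell within the control levels. The Gjc3 fold was 0.36 ± 0.10 (adjusted p = 0.0433, edgeR) by deposited name and 0.37 ± 0.15 (adjusted p = 0.126) over the agreeing animals. Mobp (ENSMUSG00000032517) was at 5.3 and 11.9 CPM in icKO 4 and 5, against 1.8, 0.955 and 2.16 CPM in control 2, 3 and 5. Mixed-record animals with formalin had Mobp at 8.74 and 4 CPM as icKO, against 2.34 and 4.97 CPM as control. Its folds of 2.18 ± 0.55 (adjusted p = 0.0369, edgeR) and 1.61 ± 0.43 (adjusted p = 0.0463) are the largest among the members and rest on its lowest level per kilobase. Of the other oligodendrocyte markers, Mog, Opalin, Olig2, Klk6 and Nkx2-2 had medians of at most 0.103 CPM, and the 3 with enough counts in the deposited fit, Myrf among them, were not called.

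Other members followed in every library were not called with formalin. Egr2 was at 15.6 and 17.5 CPM in icKO 4 and 5, against 13.1, 11.8 and 9.51 CPM in control 2, 3 and 5, and at 10.8 and 14.4 CPM in mixed-record animals as icKO, against 16.8 and 9.04 CPM as control. Egr2 did not overlap between the agreeing groups, with folds of 0.60 ± 0.21 (adjusted p = 0.0938, edgeR) and 0.28 ± 0.21 (adjusted p = 0.534). Ncmap was at 56.4 and 59.6 CPM in icKO 4 and 5, against 71, 52.4 and 83.2 CPM in control 2, 3 and 5, and at 64.2 and 62.1 CPM in mixed-record animals as icKO, against 113 and 66.3 CPM as control. Control 3 was the one control library that did not exceed all icKO libraries, and it lay below them. The Ncmap folds were -0.20 ± 0.15 and -0.28 ± 0.17. L1cam was at 502 and 305 CPM in icKO 4 and 5, against 622, 594 and 590 CPM in control 2, 3 and 5, and at 594 and 551 CPM in mixed-record animals as icKO, against 512 and 685 CPM as control. L1cam was lowest in icKO 5 and its folds were -0.50 ± 0.19 and -0.23 ± 0.14, of the opposite sign to those without formalin. Sox10 was at 49.2 and 48.1 CPM in icKO 4 and 5, against 72, 48.3 and 72 CPM in control 2, 3 and 5, and at 73 and 57.9 CPM in mixed-record animals as icKO, against 60.2 and 77 CPM as control.

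Mag, Prx, Cldn19, Sox2 and Scn7a had formalin folds between -0.03 and 0.28 in the groupings and no call. Mag was at 21.7 and 19.8 CPM in icKO 4 and 5, against 25.5, 13.4 and 25.6 CPM in control 2, 3 and 5, and at 28.4 and 24.1 CPM in mixed-record animals as icKO, against 30.8 and 22.7 CPM as control. Prx was at 243 and 186 CPM in icKO 4 and 5, against 211, 138 and 210 CPM in control 2, 3 and 5, and at 213 and 195 CPM in mixed-record animals as icKO, against 234 and 180 CPM as control. Cldn19 was at 50.7 and 46.7 CPM in icKO 4 and 5, against 51.5, 36.1 and 53.6 CPM in control 2, 3 and 5, and at 58.9 and 51 CPM in mixed-record animals as icKO, against 64.6 and 45.9 CPM as control. In each of these 3 genes control 3 was the lowest of all formalin libraries. Sox2 was at 7.41 and 10.1 CPM in icKO 4 and 5, against 6.79, 8.6 and 5.87 CPM in control 2, 3 and 5, and at 5.94 and 5.12 CPM in mixed-record animals as icKO, against 4.88 and 6.98 CPM as control. Scn7a was at 820 and 817 CPM in icKO 4 and 5, against 867, 839 and 871 CPM in control 2, 3 and 5, and at 924 and 823 CPM in mixed-record animals as icKO, against 818 and 809 CPM as control. Sox2 overlapped between the genotypes in both groupings, whereas Scn7a lay below the controls in the agreeing icKO animals and overlapped by deposited name.

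Transcripts of other tissues moved with these formalin results. The 10 skeletal muscle markers summed to 111 and 2050 CPM in icKO 4 and 5, against 61.8 to 84.1 CPM in the agreeing controls. Erythroid markers summed to 1570 to 1810 CPM, against 192 to 240 CPM, proliferation markers to 123 to 183 CPM, against 27.3 to 37.5 CPM, and perineurial and endoneurial fibroblast markers to 2640 to 5870 CPM, against 1450 to 1830 CPM. All 8 erythroid and all 8 proliferation markers were called higher over the agreeing animals, among them Bpgm (1.49 ± 0.13, adjusted p = 0.000222, edgeR) and Cdk1 (2.08 ± 0.31, adjusted p = 0.00317). The part of these tissues in the formalin calls was not tested. Of the formalin libraries icKO 5 was the richest in muscle transcripts, followed by the animal titled control 4, deposited as icKO, at 364 CPM. Without the icKO 5 formalin library neither of the calls by deposited name remained. Leaving out several other single animals had the same result, as the counts below show. Leaving out icKO 4 or icKO 5 left 1 agreeing icKO library with formalin, so no agreeing count is given for those fits. Over the agreeing animals the count of members called was 0 without control 2 or control 5 and 2 without control 3. By deposited name it was 0 without the animal titled control 2, control 3, control 5, icKO 2, icKO 4 or icKO 5, 1 without the one titled control 1, icKO 1 or icKO 3, and 2 without the one titled control 4. The median fold by deposited name, 0.04, was -0.05 without control 3.

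In the related lists with formalin, Gfra3 was lower over the agreeing animals (-1.81 ± 0.16, adjusted p = 0.000222, edgeR). So were Ncam1 (-0.68 ± 0.12) and Gap43 (-0.50 ± 0.11), adhesion and growth genes of nonmyelinating Schwann cells and of neurons. Gfap was higher there (1.53 ± 0.36, adjusted p = 0.0225, edgeR). By deposited name Gfra3 (-1.22 ± 0.32) and Ncam1 (-0.51 ± 0.11) were also lower. Gap43 (-0.27 ± 0.13, adjusted p = 0.25, edgeR) and Gfap (0.67 ± 0.44, adjusted p = 0.459) were not called by deposited name. Of 21 axon contact genes tested, Cntn2, a juxtaparanodal adhesion gene, was lower in both groupings (-0.82 ± 0.15 and -0.59 ± 0.14, adjusted p = 0.00641 and 0.0273, edgeR). Id2, an inhibitor of myelin gene expression, was higher in both (0.70 ± 0.17 and 0.48 ± 0.13), and Nab1, a cofactor of Egr2, over the agreeing animals (0.44 ± 0.11). None of the 18 other peripheral myelin genes was called with formalin, with Bcas1 folds of 0.44 ± 0.17 and 0.27 ± 0.14. Of the lipid genes, Fdft1 (-0.46 ± 0.10) was lower over the agreeing animals and Elovl6 (-0.33 ± 0.08) by deposited name. Of the satellite glia markers, Bcan was lower in both groupings (-0.58 ± 0.12 and -0.49 ± 0.11) and Glul higher over the agreeing animals (0.50 ± 0.13).

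Formalin itself called 0 of the 32 members, and 0 of 17671 genes (0%), when the changes of both genotypes, by title, were averaged (edgeR); grouped by deposited name it also called 0 members. Unadjusted p-values were under 0.05 for 5 members and 515 genes, the smallest adjusted p was 0.929, and DESeq2 also called 0. Within animals, Mag, Prx, Cldn19, Gjb1, Pmp22, Dusp15 and Gldn each had a lower level in the formalin library in 8 of 9 pairs, the exception being icKO 4, or for Dusp15 the animal titled control 1. Of all 17671 genes 1.36% were lower in at least 8 pairs and 1.43% higher, and no member was higher in as many. In icKO pairs by deposited name Mbp, Mal and Ugt8a were instead higher in 3 of 4, though the Mbp median there was 0.03 on the log2 scale. These counts are a description, since genes of a library vary together and none passed the test. The median log2 fold with formalin was -0.14 for the 24 myelinating genes and -0.06 for the other 8, against -0.002 for all genes.

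**Figure D3:**
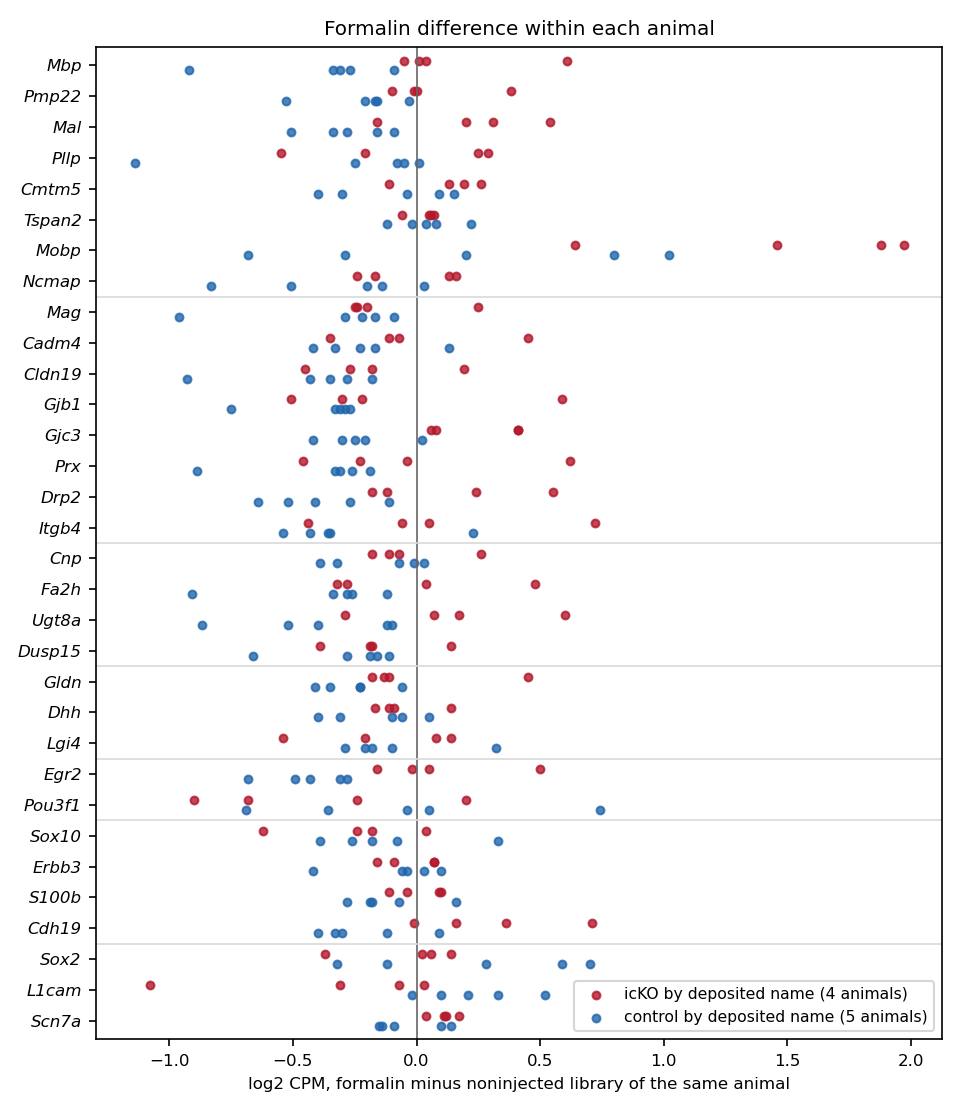
Difference in log2 CPM between the formalin and the noninjected library of the same animal for each of the 32 genes. Each point is 1 animal, 4 deposited as icKO in red and 5 deposited as control in blue. For Mag, Prx, Cldn19 and Gjb1 3 of 4 icKO points and all 5 control points lie below 0, and Gjc3 lies above 0 in 4 of 4 icKO animals.

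Cldn19 had the smallest p among the members, with a fold of -0.30 ± 0.09 (unadjusted p = 0.00389, adjusted p = 0.929, edgeR). Mobp had a fold of 1.17 ± 0.38 and was higher with formalin in 7 of 9 pairs. Gjb1, the connexin 32 gene of reflexive gap junctions in the myelin sheath, had -0.26 ± 0.11, Prx -0.22 ± 0.10 and Mag -0.22 ± 0.11. The nonmyelinating Schwann cell gene Scn7a had 0.05 ± 0.05 and Sox2 0.10 ± 0.13, each higher with formalin in 6 of 9 pairs.

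The response to formalin was then compared between genotypes. By deposited name the interaction called 0 of the members and 0 of 17671 genes (0%, edgeR). Unadjusted p-values were under 0.05 for 8 of the 32 members and 4195 of the 17671 genes, which are similar shares. DESeq2 called 3 members. The median interaction was 0.27 for the 24 myelinating genes and -0.01 for the other 8, against 0.032 for all genes. Positive values mean that the change with formalin was more positive in icKO than in control animals. Gjc3 had the smallest p, with an interaction of 0.44 ± 0.13 (adjusted p = 0.108, edgeR). It was higher with formalin in 4 of 4 icKO pairs and in 1 of 5 control pairs, with median differences of 0.24 and -0.25 on the log2 scale. L1cam had -0.62 ± 0.19 (adjusted p = 0.114) and Cdh19 0.60 ± 0.19 (adjusted p = 0.119), and these 3 were the ones named by the rule for comparisons with no call. In DESeq2 they had adjusted p = 0.0409, 0.0384 and 0.0488.

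Mbp, Mal and Ugt8a each had a higher level with formalin in 3 of 4 icKO pairs and a lower one in 5 of 5 control pairs, with interactions of 0.54 ± 0.19, 0.50 ± 0.18 and 0.54 ± 0.24 and adjusted p = 0.123, 0.131 and 0.19 (edgeR). These 3 genes are given for that pattern of pairs and not by the smallest-p rule. Drp2 was higher in 2 of 4 icKO pairs and in 0 of 5 control pairs. Mal had median differences of 0.26 in icKO and -0.28 in control animals on the log2 scale, and Ugt8a 0.12 and -0.40. Those of Mbp were 0.03 and -0.31. Its difference was 0.61 in icKO 4 and between -0.05 and 0.04 in the other animals deposited as icKO. Cdh19, lower in noninjected icKO libraries, had medians of 0.26 and -0.30. The interaction shares its noninjected libraries with the noninjected comparison above, so the values are not independent of it. Sensory neuron markers all had negative interactions, with a median of -0.43, and the 8 skeletal muscle markers tested had a median of 4.91. Without the animal titled control 1 the count of members called was 2 (L1cam and Cdh19).

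**Figure D4:**
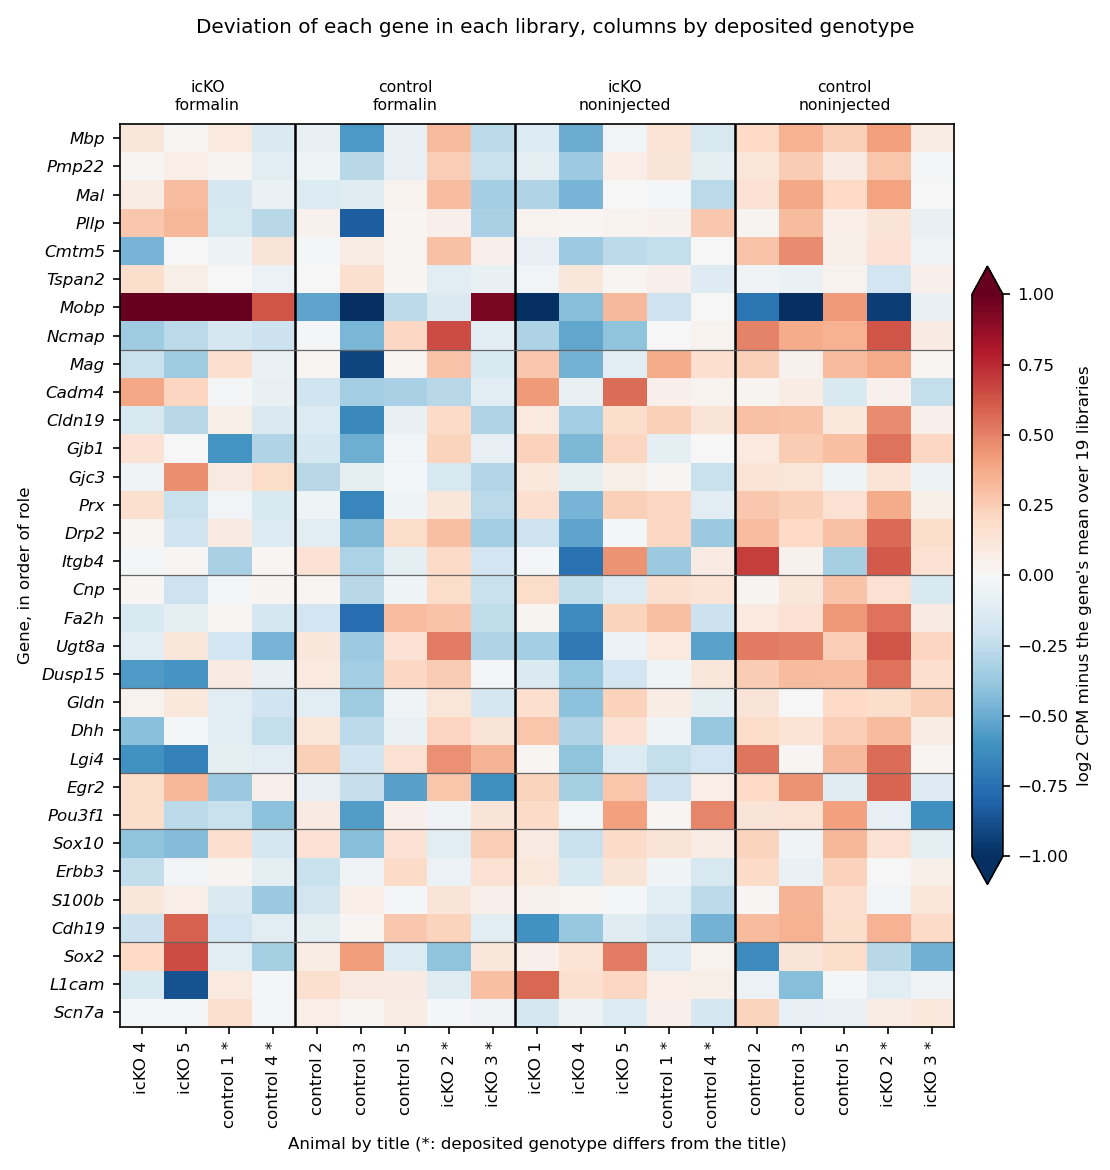
Each gene's log2 CPM minus its mean over the 19 libraries, as colour from -1 to 1 (darker cells may lie beyond), with genes in order of role and libraries grouped by deposited genotype and agent. Stars mark animals whose deposited genotype differs from the title. The columns of control 3 with formalin and icKO 4 without injection are blue over most myelinating genes, and those of the animal titled icKO 2 are mostly red.

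Single libraries carried much of the shared variation. The noninjected library of icKO 4 was the lowest of 10 for 19 of the 32 members, and its 24 myelinating genes averaged -0.36 on the log2 scale against their means. The formalin library of control 3 was the lowest of 9 for 14 members, with an average of -0.44 over the myelinating genes. The animal titled icKO 2, deposited as control, was the highest for 16 members without formalin and for 16 with it, with averages of 0.29 and 0.18. Over the 8 lineage, immature and nonmyelinating genes the library averages stayed between -0.17 and 0.17.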

How the data were processed

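Per the labels' protocols, polyA RNA of dorsal root ganglia was sequenced with a non-stranded TruSeq kit. The authors deposited raw counts per Ensembl gene. The submitters' processing notes name STAR 2.7.8a, featureCounts 2.0.1 and bcl2fastq 2.20.0.422, with the GRCm39 build. The annotation release and settings were not given in the sources used here. Of 55416 IDs, 52083 (94%) matched a gene name. Libraries over 1e+06 counts were used (19 of 20). Chi-square per degree of freedom between libraries of the same group was 6.76 to 91.3, and 0 pairs were identical. Replicates are animals numbered by the labels.

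The test was edgeR 4.0.16 on the deposited counts (quasi-likelihood, robust, TMM, filterByExpr, sex as covariate) in R 4.3.3, 4 groups in 1 fit (by title for formalin itself), with Benjamini-Hochberg adjustment over all genes and a threshold of 0.05. Standard errors come from the fold and the F statistic. The script was tested on simulated data. Named are members past the threshold, or the 3 of smallest p, with at most 4 per other list. Some genes of the other lists are counted with their list but not reported here by name. The members and lists were chosen with earlier results of these data known.

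Libraries of an animal share its number in the deposited names, so the formalin and noninjected libraries pair by animal. The main fits, those of formalin and of the interaction included, did not use this pairing and treated the libraries of an animal as independent. Deviations of paired libraries from group means correlated at -0.06 (the animal titled control 1) to 0.46 over 9 pairs. Alternatives were RLE factors, library totals, no filter, DESeq2 1.42.0, no sex term, titles, fewer libraries and the animal as a block.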

Additional observations from a re-analysis of the deposited data

Results flagged for a closer look

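Of 52 sets of values by deposited group, 5 held a library farther from its group than Dixon's 95% critical value allows, and chance flags about 1 in 20. In noninjected icKO libraries, L1cam in icKO 1 (831 CPM) stood above the others and Cldn19 in icKO 4 (44.5 CPM) below them. The 24 myelinating genes of that icKO 4 library averaged -0.36 on the log2 scale against their means, also below its group. In formalin icKO libraries, Scn7a was highest in the animal titled control 1 (924 CPM). In noninjected controls, L1cam was lowest in control 3 (415 CPM).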

How the results depend on the processing

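No member called in a comparison, or among the 3 of smallest p where none was called, changed sign under any alternative run. Scaling by library totals changed the sign of 2 uncalled members with folds near 0. They were Tspan2 in noninjected libraries in both groupings and Fa2h in formalin libraries over the agreeing animals. Members called in noninjected libraries over the agreeing animals numbered 10 with no filter, 10 with DESeq2, 3 with no sex term, 8 when the icKO 5 formalin library was left out, 9 in a fit of noninjected libraries alone and 0 by title, where the median fold was -0.12; leaving out each animal gave counts of 0 to 11 and medians of -0.31 to -0.08. Scaling by library totals moved that median to -0.26 and the median of all genes to -0.102. By deposited name the noninjected count was 11 with no filter and 1 to 6 with each animal left out. In formalin libraries the agreeing count was 1 when the icKO 5 formalin library was left out, 2 in a fit of formalin libraries alone, 0 by title and 0 to 7 with each animal left out; by deposited name it was 1 with RLE factors, 4 with no filter, 0 without that library, 0 in a fit of formalin libraries alone and 0 to 2 with each animal left out. With no filter, formalin called 2 members (Cldn19 lower and Mobp higher) and the interaction 8; the interaction called 3 in DESeq2 and 0 to 2 with each animal left out, and its median was 0.34 over the 6 agreeing animals and 0.12 to 0.28 with each animal left out. The cause of these changes was not tested. Member counts under these alternatives are given without counts over all genes, so they do not show whether members were called more than other genes. Cdh19 kept its call by deposited name in 17 of 17 alternatives (highest adjusted p = 0.0484, edgeR or DESeq2) and Ugt8a in 14 of 17. Other noninjected calls by deposited name held less often: Ncmap in 11 of 17, Mal and Lgi4 in 10, Cmtm5 and Drp2 in 9. With formalin, Mobp kept its call by deposited name in 8 of 17 and Gjc3 in 4. Over the agreeing animals without formalin, Ncmap kept its call in 11 of 14, Ugt8a and Dusp15 in 9, Mal in 8 and Lgi4 in 6. With the animal as a replicate block, formalin called 0 members (median -0.12) and the interaction 0 (median 0.23), as without it. No paired analysis was possible for genotype because each animal has 1 genotype. Low counts limit Mobp, Pou3f1, Pllp and Gjb1, and 2 agreeing icKO formalin libraries limit that comparison.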

Other observations

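The icKO 1 formalin library, used in no comparison, held 15 counts on the 32 genes among its 2829, a share of 0.53% (95% Clopper-Pearson interval 0.297% to 0.873%, counting error only). The other 19 libraries had 0.567% to 0.846%.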
